A study of Homo sapiens with 6 samples.

Results

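Tetraspanin genes were read out across 6 RNA-seq libraries, 3 labelled as wild-type G361 given a control shRNA (named Control sh here) and 3 as G361 with DCAF1 knockdown (named VprBP sh). The family was taken by name, as the protein-coding genes called TSPAN with a number together with CD9, CD37, CD53, CD63, CD81, CD82, CD151, UPK1A, UPK1B, PRPH2 and ROM1. Of these 33 genes, 28 were among the 21494 genes of the count table, and the other 5 (CD53, PRPH2, TSPAN8, TSPAN16 and TSPAN19) were not analysed here. G361 is an established human melanoma line, and VprBP is the protein encoded by DCAF1, which the study describes as a kinase of histone H2A. The labels also name LD611 as the source of the cells, so they do not settle which cells were used. Both groups carried a lentiviral shRNA and had been selected as stable cultures, and the knockdown rested on 1 shRNA against the coding region. The labels number the replicates 1 to 3 in each group but do not say whether they were separate cultures, so p-values measure the spread between these samples, which may be technical.

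Tetraspanins are small membrane proteins that cross the membrane several times and carry a large extracellular loop with a conserved cysteine motif. They bind each other and a set of partner proteins, such as integrins, immunoglobulin superfamily proteins and the protease ADAM10, in membrane microdomains, and in this way influence adhesion, migration, trafficking and shedding of surface proteins. Several of them, above all CD9, CD63 and CD81, are used as markers of extracellular vesicles, and CD63 also lies in late endosomes and in the melanosomes of pigment cells.

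A gene was called when edgeR's quasi-likelihood test gave a Benjamini-Hochberg adjusted p under 0.05 over all 16756 genes tested together with a fold change over 2. Normalized counts are counts scaled by upper quartile factors, and fold changes are VprBP sh against Control sh. Library totals ran from 18195949 to 26883948 counts. The targeted gene DCAF1 was at 688, 893 and 884 counts with Control sh and 681, 488 and 628 with VprBP sh, a log2 fold change of -0.58 (SE 0.17, adjusted p = 0.0125 from edgeR). The labelled cell type was checked against 8 melanocyte markers, of which 4 were in the table. MITF had 154 to 312 counts per library, PMEL 28 to 46, and MLANA and TYRP1 at most 5. These 4 summed to between 197 and 234 normalized counts with Control sh and between 242 and 305 with VprBP sh, and SOX10, TYR, DCT and S100B were not analysed here. Of 4 endothelial markers 3 fell (CDH5, VWF and KDR). Of 6 fibroblast markers 4 were in the table, and 3 of them fell (COL1A2, PDGFRB and LUM). Of all genes tested, 22.0% fell. The endothelial and fibroblast markers that fell had at most 9 counts in any VprBP sh library. They passed the filter on low counts through Control sh alone, so only a fall could be called. KDR, COL1A2, PDGFRB and LUM were also low in Control sh, at 13 to 68 counts. The 8 urothelial markers measured summed to between 96883 and 110221 normalized counts in Control sh and between 30734 and 34046 in VprBP sh, a sum carried by the keratins KRT5 (64337 and 3453 on average) and KRT7 (34733 and 21360). Of these 8, KRT5, KRT13 and UPK2 fell, GATA3, FOXA1 and PPARG rose, and KRT7 and UPK3B were not called, with a median log2 fold change of 0.07. CDKN2A was at 0 counts in each Control sh library and at 2059, 3479 and 4443 with VprBP sh. The difference between the groups covered much of the transcriptome, and any other difference between the cultures of the groups cannot be told apart from the shRNA.

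Of the 28 tetraspanin genes, 24 passed the filter on low counts. Of these, 6 rose and 9 fell, or 62.5% against 46.4% of all genes tested. The shares by direction were 25% against 24.5% for genes that rose and 37.5% against 22.0% for genes that fell. UPK1B, TSPAN12 and TSPAN7 passed the filter through their counts in Control sh alone. Among the 21 members with at least 10 counts in every sample, 6 rose and 6 fell, where 35.8% of all such genes were called. All 24 tested members had an adjusted p under 0.05, as had 76.4% of all genes, and in all 24 the normalized values of the groups did not overlap, which was so for 79.5% of all genes. The median log2 fold change of the tested members was -0.57 and that of all genes tested 0.08, and the median of the absolute values was 1.39 against 0.92.

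**Figure D1:**
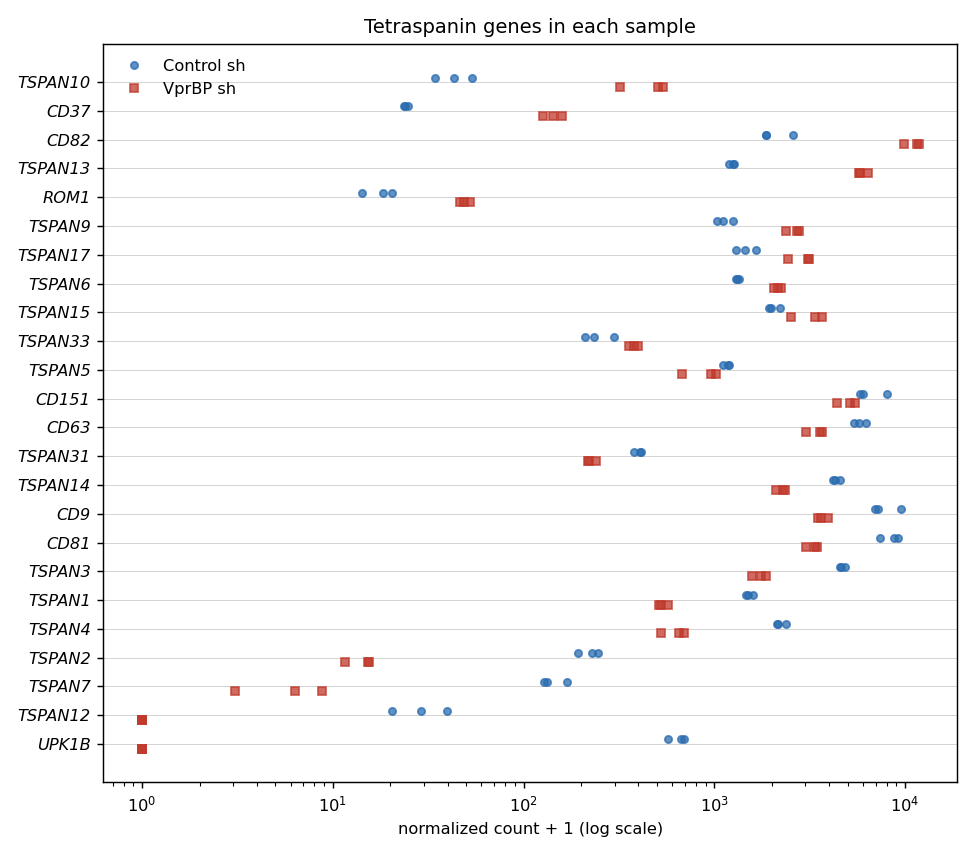
Normalized counts plus 1 on a log scale for the 24 tested tetraspanin genes, with 1 point per library, blue circles for Control sh and red squares for VprBP sh, and genes ordered by log2 fold change. No gene has overlapping groups, and UPK1B and TSPAN12 lie at 0 counts in all 3 VprBP sh libraries.

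Of the broadly expressed members known by CD names, CD82 rose, CD9 and CD81 fell, and CD63 and CD151 were not called. CD82 (ENSG00000085117.12, chr11:44564427-44620358, plus strand), which is known as the metastasis suppressor KAI1, had 2576, 1870 and 1863 normalized counts in Control sh and 9826, 11771 and 11504 in VprBP sh. The VprBP sh libraries were thus all above the highest Control sh library, and the log2 fold change was 2.39 (SE 0.14, adjusted p = 3.09e-07). CD81 (ENSG00000110651.12, chr11:2376177-2397397, plus strand), part of the B cell co-receptor and an entry receptor of hepatitis C virus, had 9122, 8727 and 7348 normalized counts in Control sh and 3032, 3437 and 3369 in VprBP sh, a log2 fold change of -1.36 (SE 0.10, adjusted p = 1.55e-06). CD9 (ENSG00000010278.15, chr12:6199715-6238271, plus strand), which is needed on the egg for fusion with sperm, had 9541, 6923 and 7207 normalized counts in Control sh and 3944, 3512 and 3612 in VprBP sh. Its first Control sh library was the highest, and the log2 fold change of -1.10 (SE 0.13, adjusted p = 2.92e-05) was -0.94 without it and -0.88 with scaling by library size alone, both within 2-fold. Tested against a 2-fold change, CD9 had an adjusted p of 0.205 in edgeR.

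CD63 (ENSG00000135404.12, chr12:55725323-55729707, minus strand), the vesicle and late endosome marker, had 6215, 5372 and 5698 normalized counts in Control sh and 3005, 3681 and 3597 in VprBP sh. The groups lay apart, but the log2 fold change of -0.75 (SE 0.10, adjusted p = 8.86e-05) did not reach 2-fold. CD151 (ENSG00000177697.19, chr11:832887-839831, plus strand), the main partner of the laminin-binding integrins, had 8011, 5772 and 6018 normalized counts in Control sh and 4409, 5147 and 5437 in VprBP sh. Its groups were separated by less than the range within either of them, and the log2 fold change was -0.40 (SE 0.14, adjusted p = 0.0213). This adjusted p was above 0.05 with a replicate block, with library size alone, where the groups overlapped, and without Control sh replicate 1 or VprBP sh replicate 1, in which the log2 fold change was -0.39, -0.19, -0.24 and -0.32.

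**Figure D2:**
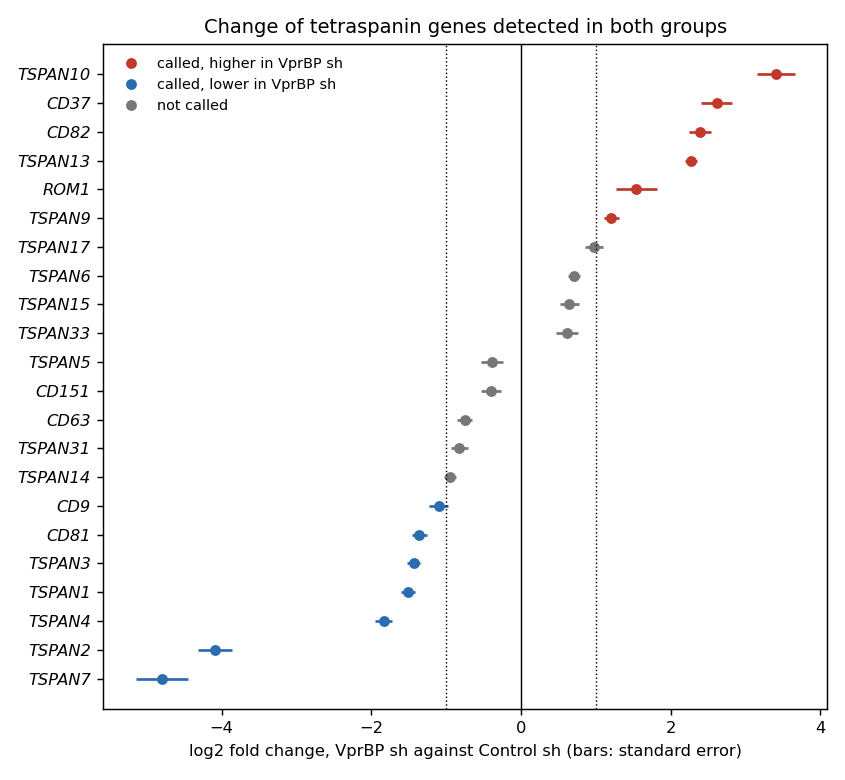
Log2 fold change of VprBP sh against Control sh with its standard error for the 22 tested tetraspanin genes with more than 3 counts in at least 1 library of each group; dotted lines mark 2-fold. Values ran from -4.79 for TSPAN7 to 3.41 for TSPAN10, and CD9 and TSPAN17 lay close to the 2-fold lines on either side.

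The TspanC8 members (TSPAN5, TSPAN10, TSPAN14, TSPAN15, TSPAN17 and TSPAN33) bind ADAM10, the main sheddase of Notch receptors and cadherins, help it leave the endoplasmic reticulum and direct it to different substrates. All 6 were tested, and 1 of them, TSPAN10, was called. TSPAN10 (ENSG00000182612.11, chr17:81637171-81648754, plus strand), also named oculospanin, had 33.3, 52.7 and 42.2 normalized counts in Control sh and 320.5, 504.0 and 538.0 in VprBP sh, a log2 fold change of 3.41 (SE 0.25, adjusted p = 1.3e-06). Every VprBP sh library was thus several times above the highest Control sh library. TSPAN10 overlaps NPLOC4 on the opposite strand, with 36 exonic bases in common, and NPLOC4 had a log2 fold change of -0.01.
TSPAN14 had 4538, 4314 and 4176 normalized counts in Control sh and 2114, 2282 and 2352 in VprBP sh, a log2 fold change of -0.95 (SE 0.08, adjusted p = 3.42e-06) that passed 2-fold with TMM factors, at -1.05, and with DESeq2, at -1.07. TSPAN17 had 1650, 1295 and 1445 normalized counts in Control sh and 2420, 3082 and 3137 in VprBP sh, a log2 fold change of 0.98 (SE 0.13, adjusted p = 6.45e-05) that passed 2-fold with library size alone, at 1.19, without Control sh replicate 1, at 1.07, and without VprBP sh replicate 1, at 1.09. These 2 genes therefore lay at the cutoff from opposite sides. TSPAN15, which is linked to shedding of N-cadherin, had 2197, 1938 and 1977 normalized counts in Control sh and 2533, 3653 and 3380 in VprBP sh, with the lowest VprBP sh value in replicate 1 and a log2 fold change of 0.65 (SE 0.13, adjusted p = 0.00135). TSPAN33 ranged from 209.8 to 298.3 normalized counts in Control sh and from 358.0 to 396.1 in VprBP sh. TSPAN5 had 1175, 1195 and 1103 normalized counts in Control sh and 673.1, 954.6 and 1021 in VprBP sh, a log2 fold change of -0.39 (SE 0.15, adjusted p = 0.0346). The adjusted p of TSPAN5 was above 0.05 with library size alone, where its groups overlapped and the log2 fold change was -0.18, without any 1 of the Control sh libraries, where the log2 fold change was -0.37 to -0.43, and with replicates 2 and 3 summed. Without VprBP sh replicate 1 the log2 fold change of TSPAN5 was -0.23.

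To compare members with each other, normalized counts were divided by the length of the canonical transcript in GENCODE 44. On this scale the makeup of the TspanC8 group differed between the groups of samples. TSPAN14 made up 25.2%, 26.9% and 25.7% of the summed TspanC8 level in Control sh and 11.4%, 9.18% and 9.62% in VprBP sh, or on average 16% and 5.82% with all exons of a gene merged as its length. TSPAN10 went from 0.777% ± 0.216 (SD, n = 3) to 5.98% ± 0.73, and TSPAN17 from 19.5% ± 1.3 to 28.6% ± 0.7. TSPAN15 was the most abundant of them in all libraries, at 39.6% ± 0.2 in Control sh and 45.8% ± 1.8 in VprBP sh. For each of these 4 genes, an exact two-sided permutation test gave p = 0.1, the smallest that 3 against 3 samples allow. Since the shares are parts of one sum, they are not independent of each other.

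**Figure D3:**
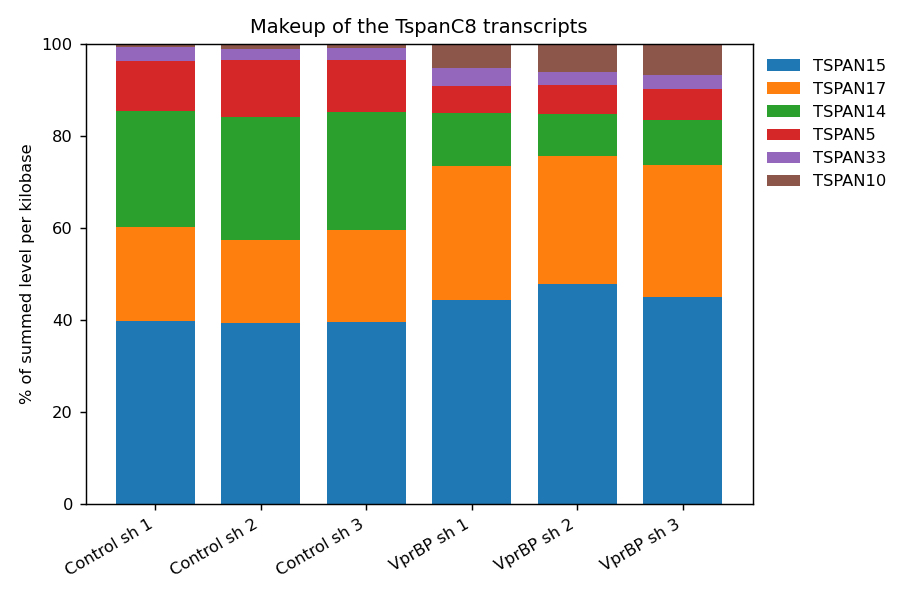
Stacked bars give the percent of the summed TspanC8 level, in normalized counts per kilobase of canonical transcript, taken by each member in each library. The TSPAN14 band shrinks from 25.2% or more in Control sh to at most 11.4% in VprBP sh, while TSPAN15 is the widest band in every library.

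ADAM10 itself fell, from a mean of 13731 to 3611 normalized counts, a log2 fold change of -1.93 (SE 0.08, adjusted p = 2.02e-08). Its 3 VprBP sh libraries had 3368, 3487 and 4644 counts against 11661, 12819 and 14934 in Control sh, with no overlap. The ratio of ADAM10 to TSPAN14 counts within a library, which no scaling factor can alter, was 2.95, 3.20 and 3.36 in Control sh and 1.76, 1.57 and 1.50 in VprBP sh. TSPAN14 was the TspanC8 member that fell most. The summed TspanC8 level per kilobase was higher in VprBP sh, at 4080 ± 633 against 3023 ± 193 in Control sh (SD, n = 3). The gap was narrow between VprBP sh replicate 1, at 3350, and Control sh replicate 1, at 3245. The higher level also depended on the division by length. Without it, the TspanC8 sums of the VprBP sh libraries spanned 8440 to 10833, which encloses the Control sh span of 8975 to 9892.

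Members with restricted expression went in different directions. UPK1B (ENSG00000114638.8, chr3:119173517-119205143, plus strand), a component of the urothelial plaque, had 573.7, 689.8 and 665.4 normalized counts with Control sh and none in any VprBP sh library. Set against a floor of 3 counts per library it was at least 222-fold lower (adjusted p = 5.29e-08), and 33 of its exonic bases are shared with a second gene on the same strand. UPK1A, which pairs with another uroplakin in the same plaque, had 0, 5 and 2 counts with Control sh and 2, 1 and 2 in VprBP sh and was not tested. Of the uroplakins that are not tetraspanins, UPK2 fell, with 209 ± 8.5 (SD, n = 3) normalized counts before and 43.1 ± 13.5 after knockdown and a log2 fold change of -2.25 (SE 0.23, adjusted p = 1.17e-05). UPK3B, at 395 ± 46.1 normalized counts with Control sh and 709 ± 114 with VprBP sh, had a log2 fold change of 0.84 and was not called.
CD37 (ENSG00000104894.12, chr19:49335171-49343335, plus strand), best known from mature B cells, had 22.9, 23.7 and 22.5 normalized counts in Control sh and 124.9, 140.9 and 157.8 in VprBP sh, a log2 fold change of 2.61 (SE 0.21, adjusted p = 2.4e-06). The increase was seen in each VprBP sh library, but at a low level. CD37 shares 319 exonic bases with TEAD2 on the opposite strand, which rose (log2 fold change 1.28), and as the strand setting of the counting is not stated, reads of these genes may not be told apart. Of 6 leukocyte markers, 1 (CD14) was in the table, at 626 to 710 counts with Control sh and 120 to 544 with VprBP sh. TSPAN32, another member known from blood cells, had 5, 5 and 2 counts with Control sh and 1, 0 and 2 with VprBP sh.
ROM1 (ENSG00000149489.9, chr11:62611722-62615116, plus strand), which in the retina shapes the rims of photoreceptor discs, had 19.5, 17.2 and 13.1 normalized counts in Control sh and 47.5, 45.3 and 51.6 in VprBP sh, a log2 fold change of 1.54 (SE 0.28, adjusted p = 0.0006). It rose at a low level, and 595 of its exonic bases are shared with EML3 on the opposite strand, which had means of 2080 and 1815 normalized counts in the 2 groups and a log2 fold change of -0.20.

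Of the remaining TSPAN genes, TSPAN13 and TSPAN9 rose and TSPAN1, TSPAN2, TSPAN3, TSPAN4, TSPAN7 and TSPAN12 fell. TSPAN13 (ENSG00000106537.8, chr7:16753755-16784536, plus strand) had 1188, 1261 and 1257 normalized counts in Control sh and 6396, 5777 and 5698 in VprBP sh, a log2 fold change of 2.27 (SE 0.08, adjusted p = 1.49e-08). Of the called members detected in both groups it had the smallest standard error. TSPAN9 (ENSG00000011105.14, chr12:3077355-3286564, plus strand), a tetraspanin of platelets, had 1258, 1115 and 1036 normalized counts in Control sh and 2382, 2705 and 2777 in VprBP sh, a log2 fold change of 1.21 (SE 0.10, adjusted p = 3.36e-06).
Among those that fell, TSPAN2 (ENSG00000134198.10, chr1:115048011-115089503, minus strand), known from oligodendrocytes, had 192.8, 226.0 and 245.0 normalized counts in Control sh and 14.4, 14.4 and 10.6 in VprBP sh, a log2 fold change of -4.09 (SE 0.22, adjusted p = 1.75e-07). TSPAN7 (ENSG00000156298.13, chrX:38561542-38688920, plus strand), mutated in X-linked intellectual disability, had 168.7, 132.4 and 126.7 normalized counts in Control sh and 7.74, 2.06 and 5.31 in VprBP sh, a log2 fold change of -4.79 (SE 0.34, adjusted p = 1.14e-06). Both were thus reduced to traces in every VprBP sh library, and TSPAN7 shares 676 exonic bases with a second gene on the same strand. TSPAN12 (ENSG00000106025.9, chr7:120787320-120858402, minus strand), a co-receptor that enhances Norrin signalling through FZD4, was low in Control sh, with 17, 26 and 41 counts, and had 0 counts in all VprBP sh libraries, which is at least 9.91-fold lower (adjusted p = 8.09e-05).
TSPAN4 (ENSG00000214063.12, chr11:842812-867116, plus strand), which builds up on migrasomes, had 2374, 2167 and 2123 normalized counts in Control sh and 527.2, 690.2 and 652.6 in VprBP sh, a log2 fold change of -1.83 (SE 0.11, adjusted p = 4.36e-07). TSPAN3 (ENSG00000140391.15, chr15:77041404-77083984, minus strand) had 4814, 4608 and 4550 normalized counts in Control sh and 1565, 1751 and 1857 in VprBP sh, a log2 fold change of -1.43 (SE 0.09, adjusted p = 3.66e-07). TSPAN1 (ENSG00000117472.10, chr1:46175073-46185962, plus strand) had 1595, 1500 and 1471 normalized counts in Control sh and 567.0, 524.6 and 510.7 in VprBP sh, a log2 fold change of -1.51 (SE 0.09, adjusted p = 3.55e-07). In these 3 genes the lowest Control sh library was more than 2 times the highest VprBP sh library.
TSPAN6 and TSPAN31 were tested and not called. TSPAN6 had 1298 to 1344 normalized counts with Control sh and 2049 to 2244 with VprBP sh, with a log2 fold change of 0.71 (SE 0.08, adjusted p = 2.2e-05). TSPAN31, next to CDK4 and co-amplified with it in sarcomas, had 377.7 to 413.1 and 217.8 to 239.7 normalized counts. Its counts are uncertain, as it shares 1558 exonic bases with AGAP2 and CDK4 on the opposite strand. TSPAN11 and TSPAN18 had at most 13 counts in any library and were not tested. Without the filter, TSPAN18 passed the thresholds, with a log2 fold change of 3.06 (adjusted p = 0.00687 from edgeR).

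The stretches before the RefSeq starts (GRCh38.p14) of members with large changes are shown because genes that fell and genes that rose can be set side by side in them. They are the members with the largest changes in each direction that had a RefSeq entry here and a stretch outside annotated exons of protein-coding genes in the 250 bases before the start (TSPAN12, with 59 such bases, is left out), read 5′ to 3′ on the strand of the gene, with CpG dinucleotides in capitals.
UPK1B and TSPAN2 fell in VprBP sh, and TSPAN10, CD82 and TSPAN13 rose.
UPK1B (chr3:119173348-119173516, plus strand, 169 bases): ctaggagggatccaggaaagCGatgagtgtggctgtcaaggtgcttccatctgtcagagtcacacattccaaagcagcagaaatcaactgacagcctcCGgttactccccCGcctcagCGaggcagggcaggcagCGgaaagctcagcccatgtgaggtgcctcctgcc
TSPAN2 (chr1:115089504-115089753, minus strand, 250 bases): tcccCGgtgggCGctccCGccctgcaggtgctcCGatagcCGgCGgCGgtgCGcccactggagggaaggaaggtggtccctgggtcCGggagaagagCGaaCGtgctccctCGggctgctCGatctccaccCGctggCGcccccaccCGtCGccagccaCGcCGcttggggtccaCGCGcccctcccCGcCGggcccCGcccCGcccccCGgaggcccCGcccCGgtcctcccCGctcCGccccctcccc
TSPAN10 (chr17:81642055-81642289, plus strand, 235 bases): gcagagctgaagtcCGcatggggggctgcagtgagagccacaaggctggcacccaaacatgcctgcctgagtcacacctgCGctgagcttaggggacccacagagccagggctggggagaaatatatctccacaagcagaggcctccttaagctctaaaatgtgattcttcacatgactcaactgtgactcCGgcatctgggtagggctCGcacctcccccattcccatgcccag
CD82 (chr11:44565413-44565600, plus strand, 188 bases): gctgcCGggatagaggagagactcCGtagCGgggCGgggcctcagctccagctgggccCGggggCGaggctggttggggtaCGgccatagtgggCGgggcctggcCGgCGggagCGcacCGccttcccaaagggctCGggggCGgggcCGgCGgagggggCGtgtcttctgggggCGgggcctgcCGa
TSPAN13 (chr7:16753505-16753754, plus strand, 250 bases): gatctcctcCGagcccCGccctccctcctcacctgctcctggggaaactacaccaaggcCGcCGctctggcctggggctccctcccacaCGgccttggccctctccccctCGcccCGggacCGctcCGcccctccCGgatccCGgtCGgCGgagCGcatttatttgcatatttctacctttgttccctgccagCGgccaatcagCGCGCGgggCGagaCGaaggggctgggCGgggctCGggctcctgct
The stretches of CD82 and TSPAN10 lie within the span of the gene in the count table, behind an earlier annotated start. CpG-poor and CpG-rich starts occurred in both directions of change. Over the full 250 bases, the ratio of observed to expected CpG was 0.298 for UPK1B and 0.798 for TSPAN2, which fell, and 0.191 for TSPAN10, 0.746 for CD82 and 0.748 for TSPAN13, which rose. The median was 0.715 over 21613 protein-coding starts and 0.568 over the 38 starts of the 20 tetraspanin genes that matched. The letters TATAAA, searched on both strands, were in 1 of these 38 windows, that of UPK1A, and in 8.99% of all protein-coding ones. GGGCGG, also searched on both strands, was in 25 of them (65.8%) and in 54.2% of all. Several starts of a gene, as for CD63 and TSPAN4, count separately here and some of their windows overlap. Genes with many starts therefore weigh more in these values.

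The order of the members by level changed along with these values. Per kilobase of canonical transcript, CD9, CD81, CD63 and CD151 were the 4 most abundant members in Control sh, with means of 6441, 5667, 5632 and 4272 normalized counts per kilobase, followed by TSPAN4 at 1611. In VprBP sh the first was CD82 at 4988, followed by CD63 at 3351, CD151 at 3235, TSPAN13 at 3180 and CD9 at 3011, neighbours whose library values overlap from CD63 onwards. CD82 had been in place 7 and TSPAN13 in place 11 in Control sh. Together, CD82 and TSPAN13 took 5.15%, 5.16% and 5.19% of the summed level of the family in Control sh and 32.0%, 30.5% and 30.1% in VprBP sh. CD9, CD63, CD81 and CD151 together took 70.5% ± 1.4 (SD, n = 3) and 44.6% ± 0.5. Both shares lay apart between the groups. Their members were picked from levels and changes in these same data, and both are parts of the same total. The separation is therefore described without a test. With all exons of a gene merged as its length, the levels of CD9, CD63 and CD81 come out lower, CD63 and TSPAN13 rank first in Control sh and VprBP sh, and the share of CD82 and TSPAN13 was 9.75% in Control sh and 43.5% in VprBP sh. That of CD9, CD63, CD81 and CD151 was then 55.4% and 28.4%.
The direction of the family as a whole depended on the measure. Its counts made up 0.250%, 0.219% and 0.216% of all counts in Control sh and 0.232%, 0.259% and 0.257% in VprBP sh, and an exact two-sided permutation test gave p = 0.2. As a sum of normalized counts it was 53620 ± 4954 with Control sh and 50524 ± 3317 with VprBP sh (SD, n = 3, exact permutation p = 0.6). Summed per kilobase of canonical transcript it was lower in each VprBP sh library, at 26511 ± 1675 against 31167 ± 3280 (exact permutation p = 0.1, the smallest possible). This order depended on the length used. With all exons of a gene merged as its length, the mean sum was higher in VprBP sh than in Control sh.

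**Figure D4:**
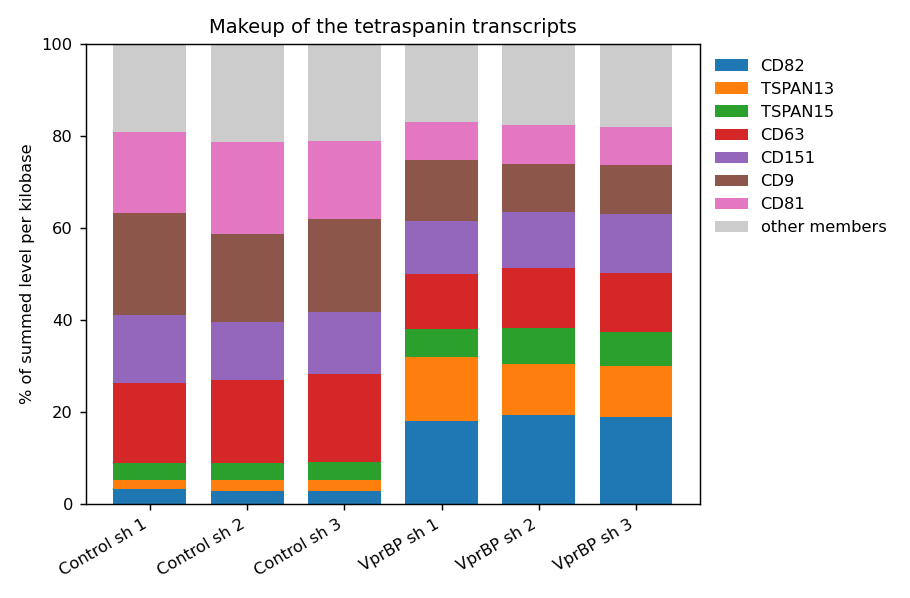
Stacked bars give the percent of the summed level of the 28 tetraspanin genes, in normalized counts per kilobase of canonical transcript, in each library. CD82 and TSPAN13 together grow from a mean of 5.17% in Control sh to 30.1% or more in VprBP sh, and the bands of CD9 and CD81 shrink.

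The neighbouring members given here differed in the size of their change or in their level, while both of each pair moved in the same direction. For TSPAN18 and TSPAN32 this rests on low counts that were not tested. CD151 and TSPAN4 are 2980 bases apart on the plus strand of chromosome 11, and their log2 fold changes were -0.40 and -1.83. CD82 and TSPAN18 are 106106 bases apart on the same strand with no protein-coding gene between them, and while CD82 was the most abundant member in VprBP sh, TSPAN18 had 2, 1 and 0 counts with Control sh and 8, 13 and 10 in VprBP sh. TSPAN32 and CD81 are 57972 bases apart, the former at 0 to 5 counts per library and the latter at 7348 or more normalized counts in Control sh.

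Of 73 genes listed as partners of tetraspanins or working with them, 65 were tested, and 9 rose and 28 fell. These are 56.9% called, against 46.4% of all genes, 43.1% lower, against 22.0%, and 13.85% higher, against 24.5%. Among them, CDH2, EREG, L1CAM and TM4SF19 passed the filter on low counts through Control sh alone, and CX3CL1 through VprBP sh alone. With at least 10 counts required in every sample, 31 partner genes were called, where 35.8% of all such genes were. The lists were chosen with results of these data known and are described here without a test of the lists. Of 18 adhesion partners, 16 were tested, of which 9 fell and 1 rose, with a median log2 fold change of -1.52. ITGA2, a collagen-binding integrin subunit, fell from 8747 to 275 normalized counts, a log2 fold change of -5.00 (SE 0.20, adjusted p = 2.43e-08). ITGA3, which binds laminin and is the closest known partner of CD151, fell from 41355 to 1740, a log2 fold change of -4.57 (SE 0.09, adjusted p = 5.16e-10). ITGB4, the integrin subunit of hemidesmosomes, fell from 34048 to 1524, a log2 fold change of -4.48 (SE 0.13, adjusted p = 3.68e-09). ITGB1, the common beta subunit, fell from 27189 to 4015, a log2 fold change of -2.76 (SE 0.11, adjusted p = 1.94e-08). The claudin CLDN7 was the adhesion partner that rose, from 1913 to 6132, and EPCAM, to which CLDN7 binds, was not called at a log2 fold change of 0.45.
Partners and tetraspanins were also set against each other as ratios of counts within a library, for 7 pairs picked after the values were seen. The ratio of ITGA3 to CD151 was 5.41, 7.10 and 6.61 in Control sh and 0.386, 0.343 and 0.322 in VprBP sh, or 18.2-fold lower. The ratio of ITGA6 to CD151 was 2.42, 3.48 and 3.30 in Control sh and 0.464, 0.206 and 0.205 in VprBP sh, and that of ITGB1 to CD151 was 4.15 ± 0.28 and 0.812 ± 0.129 (SD, n = 3). In these 3 pairs the integrin subunit thus fell more than CD151 did, while ITGA7, another laminin-binding subunit of the list, was low and not called, with 21.5 and 42.1 normalized counts on average and a log2 fold change of 0.97. The ratio of HBEGF, a growth factor precursor that CD9 binds, to CD9 was 0.186 ± 0.006 in Control sh and 0.00624 ± 0.00188 in VprBP sh. For the immunoglobulin superfamily partners the ratios differed less. IGSF8 to CD81 was 0.314 ± 0.018 and 0.224 ± 0.029, and PTGFRN to CD9 was 1.39 ± 0.21 and 1.18 ± 0.08, the pair in which the groups overlapped. In the other 6 pairs the ratios of the groups did not overlap, and for single genes the groups did not overlap in 79.5% of all genes tested. As the pairs were picked from these values, the ratios are described without a test.

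**Figure D5:**
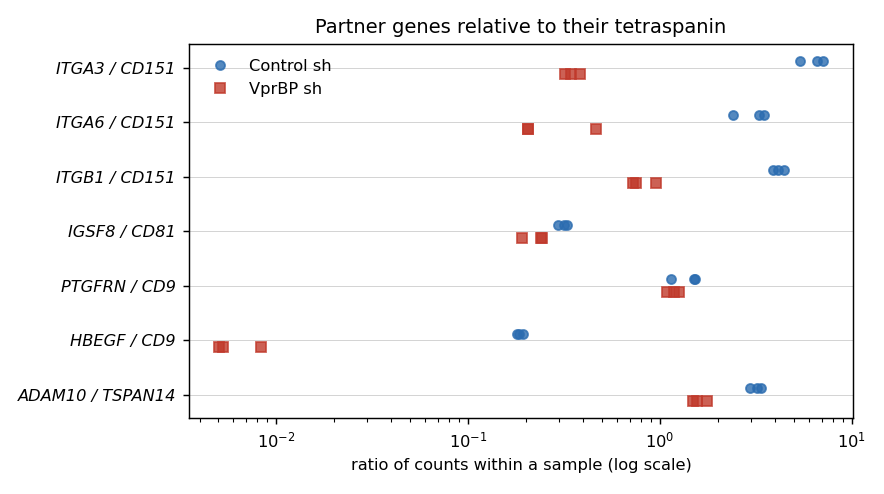
Ratio of the counts of a partner gene to those of a tetraspanin it is known to bind, on a log scale, with 1 point per library. The integrin to CD151 and HBEGF to CD9 ratios lie far lower in VprBP sh, while the PTGFRN to CD9 ratios overlap.

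Of 20 genes of sheddases and shed proteins, 12 fell and 2 rose, against 22.0% and 24.5% of all genes tested, with a median log2 fold change of -1.61. These counts include CDH2, EREG, L1CAM and CX3CL1, which passed the filter on low counts through one group alone. The list holds ADAM17, RHBDF1 and RHBDF2 beside ADAM10 and is not specific to ADAM10. Among its Notch receptors, NOTCH3 rose from 1551 to 40426 normalized counts, a log2 fold change of 4.70. NOTCH1 fell and NOTCH2 was not called, with log2 fold changes of -1.30 and 0.39. CX3CL1, a membrane-bound chemokine released by shedding, had 0 counts in Control sh and 1894, 3088 and 4328 in VprBP sh, at least 902-fold higher than the floor of 3 counts. CDH2, encoding N-cadherin, had 65, 235 and 275 counts with Control sh and 0 in each VprBP sh library, at least 67.5-fold lower. EREG, encoding the growth factor epiregulin, fell from 1144 to 6.17 normalized counts, a log2 fold change of -7.62 (SE 0.30, adjusted p = 1.99e-08). Of 21 genes of exosome formation, 4 rose and 5 fell, where 24.5% and 22.0% of all genes tested did. SMPD3, a neutral sphingomyelinase, rose from 14.6 to 385 normalized counts, SDCBP, which encodes the CD63-binding adaptor syntenin, fell from 4873 to 821, and SDC4, a syndecan, fell from 9660 to 2809, with log2 fold changes of 4.70, -2.57 and -1.78 (adjusted p = 4.2e-08, 2.82e-08 and 7.46e-05).
In the Norrin receptor complex, to which TSPAN12 belongs, FZD4 rose from 177 to 940 normalized counts, a log2 fold change of 2.41 (SE 0.11, adjusted p = 4.19e-08), while TSPAN12 had 0 counts in the VprBP sh libraries. LRP5, LRP6 and CTNNB1 were not called, with log2 fold changes of 0.27, 0.50 and 0.34. The L6 family resembles tetraspanins in topology without belonging to them. Of its members, TM4SF1 rose from 1498 to 5588 normalized counts, a log2 fold change of 1.90 (SE 0.08, adjusted p = 3.28e-08), and TM4SF19 fell from 150, 180 and 224 counts to 0, 0 and 1, at least 66.4-fold lower (adjusted p = 7.81e-08). TM4SF18 and TM4SF20 had at most 14 counts in any library and were not tested.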

How the data were processed

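Per the paper's methods, single-end reads were aligned by the authors to hg38 with STAR, quantified per gene and normalized by upper quartile. The quantification tool is not given in the sources used here. The values deposited by the authors are estimated counts, unscaled and given per sample. Of them, 59.4% are whole numbers, and all were rounded before testing. The labels name another source of the cells (LD611) and another library kit (SMARTER) than the methods do. Groups came from the sample titles.

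All 6 samples entered one fit, VprBP sh against Control sh, in edgeR 4.0.16 (R 4.3.3, upper quartile factors, minimum count 10, no replicate block), in place of the algorithm of Partek Flow, with Benjamini-Hochberg adjustment over the whole table. Standard errors were derived from the fold change and the F statistic. A count of 3 was taken as the floor, which is 2.28 to 3.44 normalized counts. It covers counting error only. Single values were compared with exact permutation tests. Annotation came from GENCODE 44 on hg38, to which coordinates of the table were matched, and promoters from RefSeq. The alternatives were TMM factors, library size alone, DESeq2 1.42.0, limma-voom (limma 3.58.1), other filters, a replicate block, a test against 2-fold, leaving out each library and summing replicates 2 and 3. Merged exons as gene length were added after the data were seen. Tests were tried on simulated data first.

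Members called whose higher group averaged 50 normalized counts or more, absent from a group or most abundant are given by sample, members not called are given where either group averaged 500 or more, and of each partner list the 3 largest called changes at a sufficient level, ADAM10, ITGB1 and all genes of short lists are named. ROM1 and TSPAN12, below that level, were added after their values were seen, as were TSPAN18, ITGA7, CLDN7, EPCAM, IGSF8, PTGFRN, HBEGF, ITGA6, NOTCH1, NOTCH2 and NOTCH3. The members and lists were chosen with earlier results of these data known.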

Additional observations from a re-analysis of the deposited data

How the results depend on the processing

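All 24 tested tetraspanin genes kept the sign of their log2 fold change in every alternative that gave a value. The number called ranged from 12, with at least 10 counts required in every sample, to 16. That filter removes genes that are absent from a group and moved the number of genes called across the table from 7778 to 4690. Calls of tested members moved for CD9, TSPAN14 and TSPAN17, as given above, and TSPAN18, too low to be tested, was called without the filter and with replicates 2 and 3 summed (log2 fold change 3.03). The summed share of the family reversed, from a log2 ratio of 0.13 to -0.0858 as a sum of normalized counts and -0.1708 without CD82, and lay between 0.09 and 0.20 when a library was left out. The replicate block called 15 tetraspanins and 7686 genes. Same-numbered samples did not deviate together (correlations of -0.14, -0.03 and -0.11 over 13303 genes), so the numbers were not taken to pair them. The block changed no call of a tetraspanin, while the adjusted p of CD151 rose to 0.0677. Over the alternatives that test for any change, it ran from 0.00114 with DESeq2 to 0.205 with library size alone. Scaling by library size alone moved the median of all genes tested from 0.08 to 0.29 and that of the tetraspanins from -0.57 to -0.36. Partner genes called numbered 31 to 39, against 37.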
